A study of Mus musculus with 15 samples.

Results

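The genes described here encode the proteasome, its activators and the factors that assemble it. They were chosen by name: every probe whose gene symbol in the platform annotation begins with Psma, Psmb, Psmc, Psmd, Psme, Psmf or Psmg. The rule found 44 genes with 66 probes, of 16593 named genes and 25697 probes in all. Of these, 42 genes with 63 probes encode subunits, activators or assembly factors. The other 2 symbols, Psmc3ip and Psme3ip1 with 3 probes, name proteins that are no proteasome subunits and were counted apart. Liver and heart RNA of male mice aged 17 weeks, of the strain named C57BL/6J-Tyr, was hybridised to Illumina bead arrays. Wild-type mice were compared with homozygous mutants of Abcb5, a gene for a transporter of the ATP-binding cassette family. The hearts came from 4 wild-type and 4 mutant mice, and the livers from the same mice except for 1 mutant, so that 3 mutant livers were measured. No mouse was treated, the mutant allele is not described in the sources used here, and no probe analysed carried the name Abcb5, so its level did not check the genotype labels.

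The proteasome degrades proteins that carry ubiquitin chains. Its core is a barrel of stacked rings: the outer rings of alpha subunits (Psma genes) gate the entry, and the inner rings of beta subunits (Psmb genes) hold the proteolytic sites. The regulatory cap has a base with ATPases (Psmc genes) that unfold the substrate and a lid that removes ubiquitin (most Psmd genes). In cells exposed to interferon-gamma, Psmb8, Psmb9 and Psmb10 replace the standard catalytic subunits to give the immunoproteasome, which is known for making peptides for antigen presentation. Heart muscle and liver both depend on the proteasome for turnover of damaged and short-lived proteins.

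In the mutant hearts 3 proteasome genes changed, in different directions, and the others did not pass the test. Psmb1 and Psmb5, subunits of the core's beta ring, rose, and Psme3, a nuclear activator of the core, fell. In the mutant livers no proteasome gene passed the test. The test was limma on log2 of the background-corrected intensity plus an offset of 16, with Benjamini-Hochberg adjustment over all probes of the tissue and a threshold of 0.05. In heart 60 of the 66 probes were above background on at least 3 arrays and were tested, and 3 of them passed, as they also did when wild-type heart 4, an array that stood apart, was left out. Over all 18514 probes tested in heart 367 passed, which is 1.98%. In liver 56 of the 66 probes were tested and 0 passed, against 12 of all 11958 probes (0.100%). At an unadjusted p below 0.05 there were 8 proteasome probes in heart, where 15.7% of all probes reached it, and 7 in liver, where 11.4% did. These shares lay close to those of all probes.

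Some arrays and markers bear on the heart values. The array of wild-type heart 4 stood apart: its mean rank correlation with the other hearts was 0.905, against 0.937 to 0.939 for the other 7. The tissue labels fitted their markers. Summed liver transcripts were at 39260 to 45960 on the liver arrays, from 5 markers above background there. On the heart arrays they were at 32.7 to 54.3, from the 4 above background in heart. Of the heart muscle markers 0 of 4 were above background in liver. Red cell markers were lower in the mutant hearts, with summed levels of 25540 to 30270 against 36900 to 73790, the highest on wild-type heart 4. Most of each sum was Hba-a1, which did not pass, and 3 of 4 fell (Alas2, Hbb-bt and Slc4a1). The log2 changes of the 4 genes in heart ran from -3.06 to -0.43 with a median of -1.95, so the sums understate the falls. Of the 5 smooth muscle and fibroblast markers 2 rose in heart (Col1a1 and Col3a1). The sums of all 5 were 6308 to 8096 in mutants and 5243 to 6207 in wild types. Most of each sum was Acta2, at 5451.7 to 6993.9 and 4437.5 to 5274.9, which did not pass, so the sums say little about the collagens. The sums of 5 endothelial markers were 3410 to 3906 in mutants and 2677 to 2914 in wild types. Most of each was Esam, at 2215.7 to 2663.2 and 1710.4 to 1934.4. None of the 5 genes passed the test, with Esam the nearest (limma adjusted p = 0.0548). All 5 were above 0 at their brightest probes, where 51.8% of all genes were, with a median of 0.27. Leukocyte markers, of which 11 of 12 were above background in heart, overlapped between the groups (3071 to 3471 in mutants, 2642 to 3955 in wild types). At their brightest probes 3 of these 11 genes were above and 8 below 0 and none passed, but a dimmer probe of Lyz2, a lysozyme of myeloid cells, rose by 0.77 ± 0.16 (limma adjusted p = 0.0274) where the brightest was at 0.06. Cd52 (-0.38), Cd79a (-0.34) and Cd79b (-0.37), of lymphocytes, were lower without passing (limma adjusted p = 0.30, 0.12 and 0.30). The summed heart muscle markers were at 58000 to 72900 in the mutant and 66120 to 118400 in the wild-type hearts, with overlap. The highest sum was that of wild-type heart 4, and the other wild-type hearts lay within the range of the mutants. The part of these markers in the proteasome values was not tested. Fewer cells of a type and less RNA per cell cannot be told apart in whole tissue.

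Psmb1 encodes a beta subunit without a proteolytic site of its own. In the wild-type hearts its deposited intensity was 185, 147.2, 212.2 and 176.7. In the mutant hearts it was 401.4, 381.9, 465.3 and 542.8. Every mutant heart lay above every wild-type heart. On the log2 scale the mean rose from 7.62 ± 0.20 to 8.85 ± 0.22 (SD, n = 4 hearts each), a change of 1.23 ± 0.13 (SE) or 2.34-fold, with a limma adjusted p of 0.000779. Without wild-type heart 4 the change was 1.22 (adjusted p = 0.00171).

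In liver Psmb1 was at 940.7, 874.4, 893.9 and 794.9 in the wild types and at 763.2, 836.8 and 716.5 in the mutants. These groups overlapped, and the change of -0.21 ± 0.13 did not pass the test (limma adjusted p = 0.59). The liver change minus the heart change was -1.43 ± 0.18 (limma adjusted p = 0.000701), in a test where 248 of 11426 probes, or 2.17%, passed. The tissues had been scaled separately before deposit, so only these changes and not the levels were set against each other.

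Psmb5 encodes the subunit with the chymotrypsin-like site, the main target of proteasome inhibitor drugs. Its intensity was 116.5, 147.2, 115.3 and 117.2 in the wild-type hearts. It was 371.6, 238.7, 245.7 and 200.3 in the mutant hearts. Again the groups did not overlap, and the spread was larger among the mutants, where heart 1 was the highest. The log2 mean rose from 7.15 ± 0.15 to 8.11 ± 0.35 (SD, n = 4 hearts each), by 0.96 ± 0.16 (SE, limma adjusted p = 0.00973). The call was lost when a floor replaced the background correction (change 1.06, adjusted p = 0.0888) and when the spread was estimated from both tissues in a single fit (adjusted p = 0.0624).

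In liver Psmb5 was dim. It was above background on 2 wild-type and 2 mutant arrays, at 122.7, 113.9, 113.2 and 150.4 in the wild types and 112.5, 119.9 and 129.9 in the mutants. Its change there was -0.12, and readings this close to background do not bound a change in its level. The difference between the tissues, -1.08 ± 0.39, did not pass the test (limma adjusted p = 0.177).

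Psme3 encodes an activator ring found in the nucleus, which opens the core for substrates that need no ubiquitin. Its intensity was 516, 638.9, 518.9 and 736.7 in the wild-type hearts. In the mutant hearts it was 318.5, 356.9, 361.1 and 329.9. All mutants lay below all wild types, and they differed little among themselves. The log2 mean fell from 9.26 ± 0.24 to 8.49 ± 0.08 (SD, n = 4 hearts each), a change of -0.77 ± 0.12 (SE), with wild types 1.71-fold higher (limma adjusted p = 0.00777). Without wild-type heart 4, the highest array, the change was -0.67 (adjusted p = 0.00945). With a floor in place of the background correction the call was lost (change -0.80, adjusted p = 0.0634).

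In liver the order of the Psme3 groups was the opposite one. The wild types were at 239.4, 265.9, 258.8 and 261.3 and the mutants at 275.6, 293.4 and 308.5. The groups did not overlap, but the change of 0.29 ± 0.12 did not pass the test over all probes (limma adjusted p = 0.40). The difference between the tissues, liver minus heart, was 1.06 ± 0.17 and passed it (limma adjusted p = 0.00509).

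**Figure D1:**
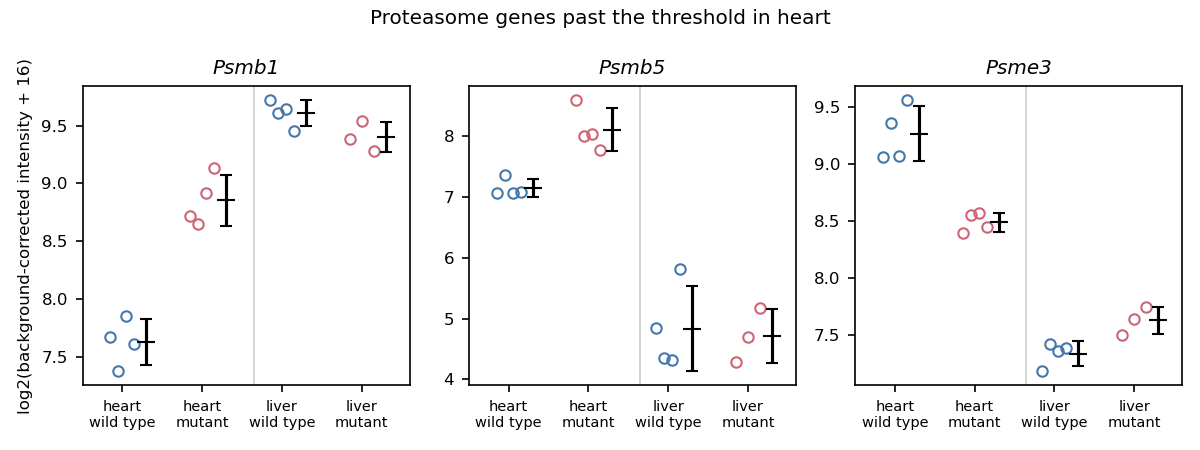
Log2 of the background-corrected intensity plus 16 (vertical axes, a separate range per gene) of Psmb1, Psmb5 and Psme3 on each array, by tissue and genotype; circles are arrays and the bars are means ± SD. In heart the mutant circles lie apart from the wild-type circles for all 3 genes, while in liver only those of Psme3 do. Levels are not comparable between the tissues, which were scaled separately.

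Each of these 3 genes was read by 1 probe, so no second probe checks its change. A pseudogene of Psmb5 is annotated on chromosome 11, and whether its transcripts reach the Psmb5 probe was not tested. They lie on different chromosomes, Psmb1 on 17, Psmb5 on 14 and Psme3 on 11. The promoters of Psmb5 and Psme3 are shown because these genes moved in opposite directions in heart. The sequences are those of RefSeq on GRCm38.p6, from 250 bases before to 50 bases after the annotated start, 5′ to 3′ on the gene's own strand. Capitals mark the matches to 3 promoter motifs searched on both strands: TGACNNNGC, the antioxidant response element that NFE2-family factors bind, the CCAAT box (CCAAT) and the GC box (GGGCGG). Psmb5 spans chr14:54617946-54618245 on the minus strand and Psme3 chr11:101315963-101316262 on the plus strand.
Psmb5: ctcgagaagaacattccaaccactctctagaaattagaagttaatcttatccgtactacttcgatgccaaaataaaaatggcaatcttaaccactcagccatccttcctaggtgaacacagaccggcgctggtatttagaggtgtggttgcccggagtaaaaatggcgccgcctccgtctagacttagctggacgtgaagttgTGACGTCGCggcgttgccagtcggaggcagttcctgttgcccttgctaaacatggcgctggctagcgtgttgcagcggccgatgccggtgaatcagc
Psme3: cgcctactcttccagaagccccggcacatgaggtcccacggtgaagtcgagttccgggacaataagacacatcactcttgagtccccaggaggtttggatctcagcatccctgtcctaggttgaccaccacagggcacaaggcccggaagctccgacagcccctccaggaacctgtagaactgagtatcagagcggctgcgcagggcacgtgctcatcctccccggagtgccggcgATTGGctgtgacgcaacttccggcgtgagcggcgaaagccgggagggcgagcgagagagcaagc

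The Psmb5 window held 1 match to TGACNNNGC, from base -47 to base -39 relative to the start, and none to the other motifs. The Psme3 window held 1 CCAAT box, read on the opposite strand as ATTGG, from base -14 to base -10, and none of the other motifs. Of the 42 genes 36 had a promoter in the table, and Psmb1 was not among them. Matches to TGACNNNGC stood in 6 of the 36 (16.7%), against 14.0% of all 27025 genes of the table. CCAAT stood in 13 (36.1%, against 41.1% of all genes) and GGGCGG in 21 (58.3%, against 38.2%). The share with a GC box was above that of all genes, and the other shares were near it. Besides Psmb5, the windows of Psmb6, Psmc6, Psmd9, Psmd12 and Psme4 held TGACNNNGC. None of these passed the heart test, with changes of -0.02, -0.11, -0.18, -0.02 and 0.03 at their brightest probes. A match describes letters in the window and not a bound site.

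The genes beside the changed members on the chromosome were read as well, 4 protein-coding genes on each side, a set chosen after the values were seen. Around Psmb1 none passed the test in heart: its nearest neighbours Fam120b and Tbp were at -0.33 and -0.07. Around Psme3 none passed either. Its nearest neighbours were Becn1, with probes at -0.21 and -0.02, and Aoc2, with probes at -0.02, -0.07 and -0.14. Coa3, further away, was at 0.02. Around Psmb5, 1700123O20Rik, the fourth gene on one side, had a probe above background on 0 of 4 wild-type and 4 of 4 mutant hearts, so only a lower bound of its change is known: it was higher in the mutants by at least 1.49 on the log2 scale. This bound sets the mutant mean against the lowest signals above background on the wild-type arrays, and the probe entered the test through the mutants (limma adjusted p = 0.000394). The other probe of that gene was at 0.30 (adjusted p = 0.16). No other measured gene around Psmb5 passed, and the gene next to it on that side is Psmb11, a thymus subunit gene not analysed here.

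**Figure D2:**
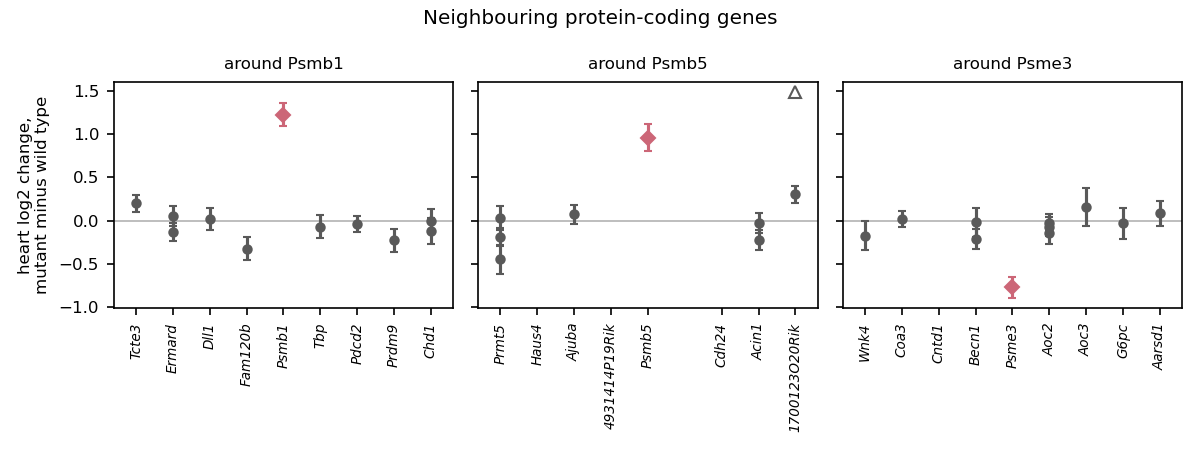
Heart log2 change, mutant minus wild type (vertical axis), of each tested probe of the 4 protein-coding genes on either side of Psmb1, Psmb5 and Psme3 in chromosome order (horizontal axis); diamonds are the proteasome genes, points the neighbours, and bars ± SE. The 3 proteasome genes lie apart from their neighbours except for a probe of 1700123O20Rik, drawn as an open triangle at the lower bound of its change. Gene names without a point had no tested probe, and the gap beside Psmb5 is the place of Psmb11.

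The other genes of the standard core did not pass the test in either tissue. The alpha ring genes Psma2, Psma3, Psma4, Psma5 and Psma7 were tested in heart at their brightest probe, where their changes were all above 0 and small, between 0.02 and 0.09 with a median of 0.05. The 3 of smallest p were Psma5 (0.09 ± 0.09), Psma7 (0.08 ± 0.09) and Psma4 (0.05 ± 0.10), and their groups overlapped. In liver the median of the same 5 genes was -0.05, with Psma4 at -0.11, Psma5 at -0.10 and Psma2 at -0.05. Psma2, for example, was at 3542.4 to 3925.1 in the wild-type and 3600.8 to 4066.7 in the mutant hearts. The probes of Psma1 and Psma6 were not above background on enough arrays for a test in either tissue.

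Of the beta ring, Psmb2, Psmb3 and Psmb4, which have no catalytic site, differed little in heart (0.07, 0.01 and 0.09). Psmb4 was at 3937.4 to 4144.7 in the wild-type hearts and 4066.4 to 4517 in the mutants, with overlap. Psmb6, the caspase-like subunit, was at -0.02 ± 0.11 in heart and 0.13 ± 0.13 in liver. Psmb7, the trypsin-like subunit, had 3 probes that disagreed. In heart they gave 0.06, -0.24 and -0.13, and in liver -0.47, 0.01 and 0.17. The first probe did not overlap in liver, with 574.6 to 731.4 in the wild types and 453.5, 510.4 and 567.5 in the mutants, but its adjusted p was 0.27 (limma). So of the 3 standard catalytic subunits 1 rose in heart, and the 95% intervals of the brightest probes of the other 2 were -0.26 to 0.23 for Psmb6 and -0.49 to 0.01 for Psmb7.

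The immunoproteasome subunits did not pass the test. Psmb10, the inducible trypsin-like subunit, had a change of 0.29 ± 0.11 in heart at its brighter probe (limma adjusted p = 0.22) and of 0.20 at the other. Its wild-type hearts were at 608.1, 623.2, 598.3 and 779.3 and its mutants at 743.4, 859.8, 744.6 and 859.3. Wild-type heart 4 was the only wild-type array within the range of the mutants. Without it the change at the brighter probe was 0.38 and did not pass (limma adjusted p = 0.0907). Psmb9, which takes the place of the caspase-like Psmb6, was at 102.8, 108.3, 102.6 and 61.3 in the wild-type and 109.6, 112.4, 106.9 and 145.3 in the mutant hearts. Its change of 0.30 ± 0.15 turned on a few arrays, since it came to 0.15 when wild-type heart 4 was left out and to 0.21 when mutant heart 4 was, and it passed in none of these fits (limma adjusted p = 0.36, 0.60 and 0.60). Psmb8, the inducible chymotrypsin-like counterpart of Psmb5, was dim and at 0.02 ± 0.11 in heart, with 20.7 to 35.6 in wild types and 23.5 to 31 in mutants. In liver Psmb8 was at -0.26 and Psmb9 at 0.04. Psmb10 was at -0.22 at its brighter probe and at 0.13 at the other, so its probes disagreed in direction. The groups of all these probes overlapped in liver.

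Psme1 and Psme2 form the interferon-inducible activator ring that works with the immunoproteasome. Psme2 was at 232.4, 221.7, 264.8 and 270.3 in the wild-type hearts and at 211.9, 193.7, 211.1 and 178.7 in the mutants. These groups did not overlap, and the change was -0.29 ± 0.10, which did not pass the test (limma adjusted p = 0.19). The brighter Psme1 probe, at 1720.9 to 1936.8 in wild types and 1544.5 to 1669.3 in mutants, did not overlap either (-0.17 ± 0.09, adjusted p = 0.37), while the other Psme1 probe was at 0.03. In liver Psme1 was at -0.06 and Psme2 at -0.03. Psme4, a further nuclear activator that is known for its role in sperm development, was at 0.03 in heart and -0.01 in liver at its brighter probe. Among the 4 activators tested 1 fell in heart, and their median was -0.23, against 0.01 over all 12557 genes tested there.

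**Figure D3:**
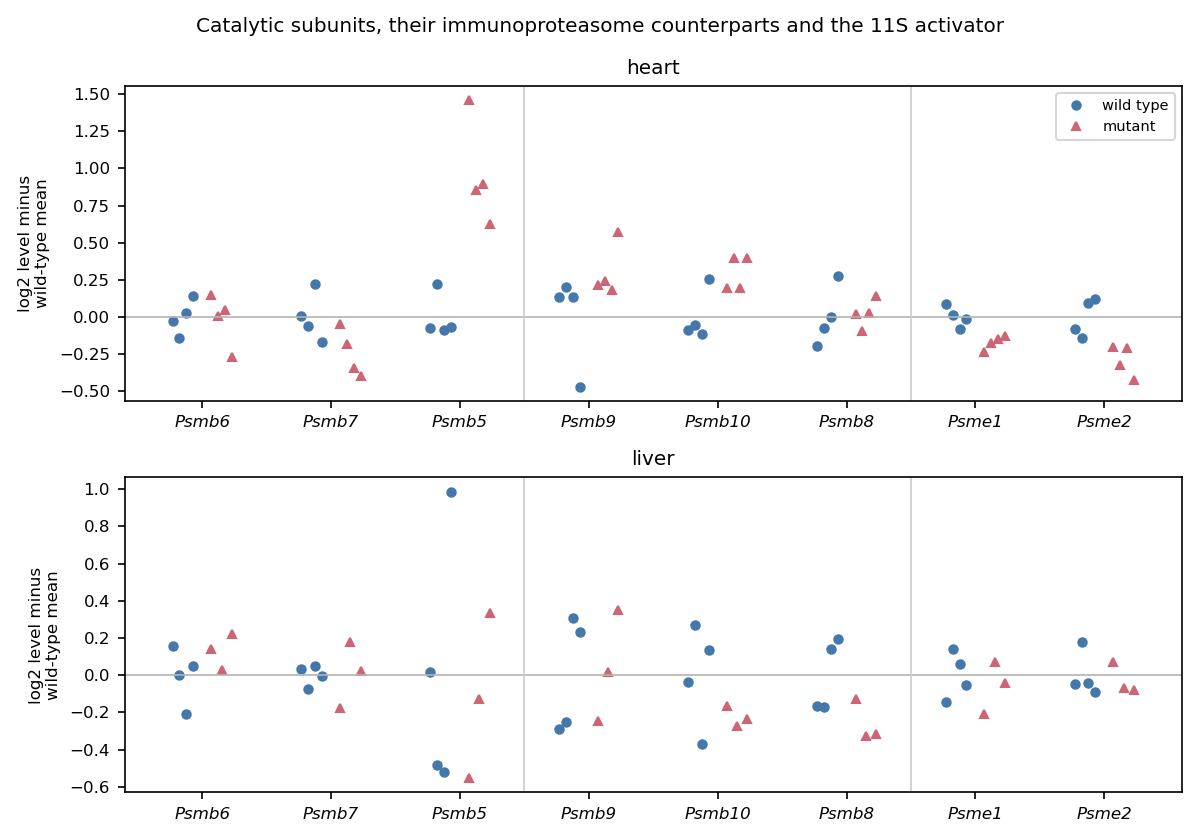
Log2 level of each array minus the mean of the wild-type arrays of the same tissue (vertical axes) for the standard catalytic subunits, their immunoproteasome counterparts and the activator genes Psme1 and Psme2, at the brightest probe; circles are wild-type and triangles mutant arrays. In heart the 4 mutant arrays lie above all wild types for Psmb5 and below them for Psme1 and Psme2, and in liver all of these genes overlap.

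In the base of the cap, the 6 ATPase genes had a median change of 0.01 in heart and 3 were above and 3 below 0. Psmc4 was at 1093.1, 1101.5, 1199.8 and 1176.9 in the wild-type and 1352.3, 1276.4, 1334.7 and 1341.2 in the mutant hearts. Its groups did not overlap, and the change of 0.21 ± 0.09 did not pass the test (limma adjusted p = 0.26). Psmc5 was at -0.14 in heart and 0.20 in liver at its brighter probe, and Psmc6, dim in heart (-0.11), was not above background on enough liver arrays for a test. In liver Psmc2 was at -0.11 and Psmc3 at 0.10. Of the subunits that are no ATPases, the scaffold Psmd1 was at -0.15 in heart and -0.36 in liver, the scaffold Psmd2 at 0.01 and -0.32, and the ubiquitin receptor Psmd4 at 0.04 and 0.18. Psmd4 did not overlap in liver, with 2072.3 to 2387.6 in the wild types and 2436.4 to 2613.3 in the mutants, but it did not pass the test (limma adjusted p = 0.62). Psmd2 was above background on 3 wild-type and 0 mutant livers, so its liver value rests on dim readings.

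In the lid 6 genes were tested in each tissue, with medians of 0.10 in heart and 0.04 in liver. Psmd14, the deubiquitinase of the lid, was at 0.17 ± 0.12 in heart and -0.04 ± 0.14 in liver. Psmd6 had the smallest p of the lid in heart (0.27 ± 0.12, limma adjusted p = 0.28), from dim readings of 8.1 to 16.1 in wild types and 12.6 to 19.3 in mutants. Psmd13, a structural lid subunit, was at 1583.7 to 1667.6 in the wild-type and 1732 to 1750.4 in the mutant hearts. It did not overlap although the change was small, 0.10 ± 0.08 (limma adjusted p = 0.64). In liver Psmd11 was at -0.45 ± 0.17 at its brighter probe and at 0.18 at another, and Psmd12 was at 0.15 ± 0.11 without overlap. These probes did not pass the test (limma adjusted p = 0.36 for Psmd11 and 0.68 for Psmd12).

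The assembly factors did not pass the test either. Psmg1, Psmg2 and Psmg3 are chaperones that build the alpha ring, and Psmd5, Psmd9 and Psmd10 are chaperones of the ATPase base. In heart the 6 genes had a median of -0.07, with Psmg3 at 0.21, Psmg2 at -0.15 and Psmd9 at -0.18. The other probes of Psmg2 and Psmd9 were each at 0.07 there and so disagreed in direction. In liver their median was -0.05. Psmg2 was at 279.2, 272.5, 293.5 and 292.4 in the wild-type and 228.3, 260 and 240 in the mutant livers, without overlap, a change of -0.36 ± 0.12 (limma adjusted p = 0.32), and at its other probe at -0.12. Psmd5 was at -0.43 ± 0.16 (adjusted p = 0.35) and Psmg1 at 0.22 ± 0.13 (adjusted p = 0.56) in liver.

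**Figure D4:**
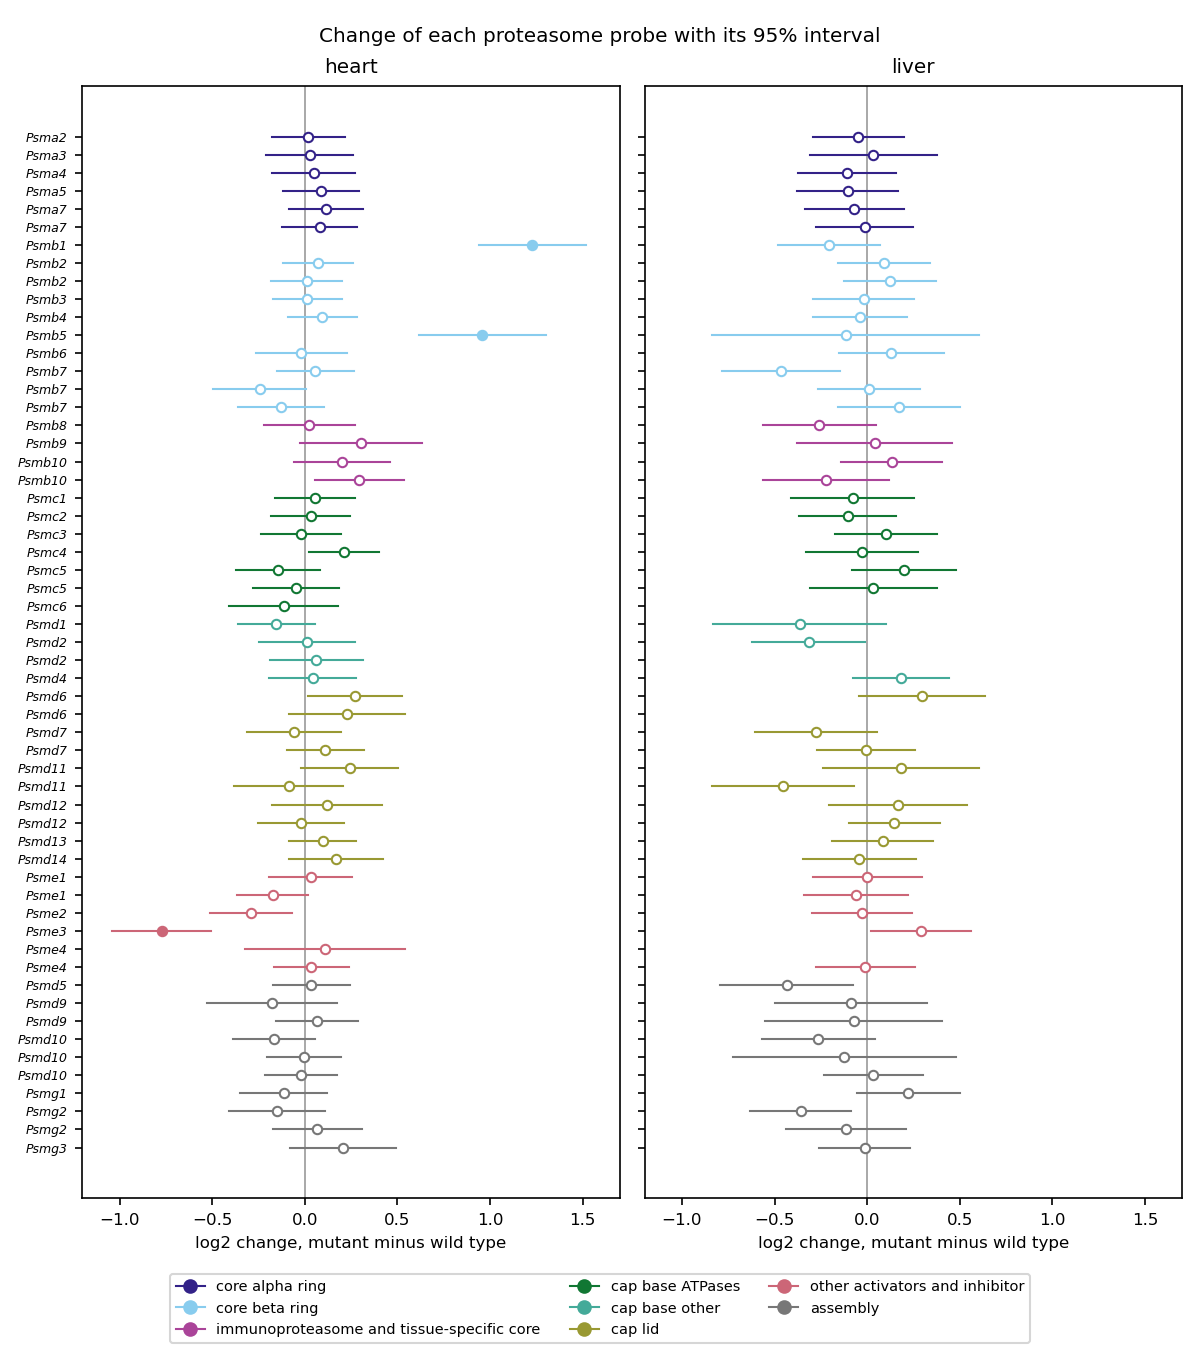
Log2 change, mutant minus wild type (horizontal axis), with its 95% interval for every tested probe of the 42 proteasome genes in heart and in liver, coloured by part of the proteasome; filled circles passed the test and a missing circle marks a probe not tested in that tissue. In heart Psmb1, Psmb5 and Psme3 are the filled circles, and in liver there are none.

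Across the whole complex the changes were small and precisely measured for most probes. Of the 57 subunit, activator and assembly probes tested in heart, 46 (80.7%) had a 95% interval within ±0.5 on the log2 scale, that is within 1.41-fold, against 77.5% of all probes. In liver 35 of 53 (66.0%) did, against 59.1% of all probes. Changes beyond 0.5 were seen at 3 heart probes (5.26%, all probes 3.2%), those of the 3 genes called, and at 0 liver probes (all probes 3.59%). The groups did not overlap at 7 of the 57 heart probes, 4 up and 3 down, where 10.0% of all probes did not overlap. At 6 of the 53 liver probes, 4 up and 2 down, they did not overlap either, where the share of all probes was 11.2%. Both counts lay near those of all probes.

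At the brightest probe of each gene, 40 proteasome genes were tested in heart, where 2 rose and 1 fell. Their changes were above 0 for 25 genes (62.5%) and below for 15, with a median of 0.03. Over all 12557 genes tested in heart 51.8% were above 0 and the median was 0.01. In liver 39 proteasome genes were tested, 14 (35.9%) above 0 and 25 below, with a median of -0.03, against 51.3% and a median of 0.01 over 8447 genes. The wild-type arrays differed less for these genes than for the array as a whole: the median SD between wild types was 0.12 for the proteasome probes in heart and 0.16 for all probes, and in liver 0.12 and 0.17. The sets were not matched for brightness, so whether the lower spread is particular to these genes was not tested.

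**Figure D5:**
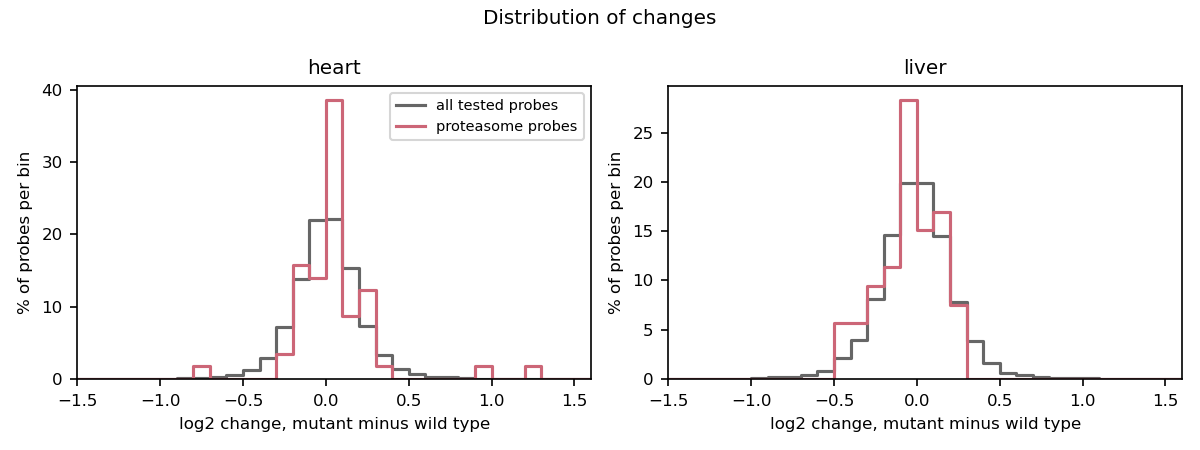
Share of probes (vertical axes, percent per bin of 0.1) by log2 change, mutant minus wild type (horizontal axes), for the proteasome probes and for all tested probes of each tissue. In heart the proteasome probes form a narrow peak with 3 apart from it, and in liver they lie within the range of the others; the tails of all probes run past the axes.

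The 2 symbols that share these prefixes but name no subunit did not pass the test. Psme3ip1, an interaction partner of Psme3, was at 0.26 in heart and -0.27 in liver at its brighter probe. Psmc3ip, a factor of meiotic recombination named after its partner Psmc3, is given here after its values were seen. In liver it was at 113.6, 114.2, 116.2 and 113.3 in the wild types and at 116.3, 188.6 and 161.1 in the mutants, and it did not pass (limma adjusted p = 0.215). It was above background on 1 of 4 wild-type and 3 of 3 mutant livers and so entered the test through the mutants, and the size of the difference is not known. Mutant liver 1 was level with the wild types. In heart 2 arrays were high, wild-type heart 4 at 249.8 and mutant heart 1 at 290.5, against 63.1 to 90 on the other 6.

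Genes that work with the proteasome outside these symbols were read from 4 lists, and none of their brightest probes passed the test in either tissue. Of the proteasome-associated proteins 6 genes were tested in each tissue. Uchl5, a deubiquitinase bound to the cap, was at 194.3, 175, 183.3 and 187.9 in the wild-type and 154.3, 159.1 and 154 in the mutant livers, a change of -0.56 ± 0.12 without overlap (limma adjusted p = 0.15). Its other probes were at -0.11 and -0.02 there, so they disagreed in size, and in heart the first was at -0.24. Usp14, the other deubiquitinase of the cap, was at 0.28 in liver, and the ligase Ube3c at 0.16 in heart. Pomp, which completes the core, was at 0.07 in heart and 0.01 in liver.

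Nfe2l1, the transcription factor that raises subunit genes when the proteasome is inhibited, was at 0.07 in heart and 0.26 in liver. Its liver groups did not overlap, with 423.1 to 457.6 in wild types and 484.9 to 548.7 in mutants, but it did not pass (limma adjusted p = 0.45). Nfe2l2, which drives antioxidant genes, was at -0.21 in heart and -0.20 in liver, and the unfolding ATPase Vcp at -0.16 and 0.05. Of the ubiquitin shuttles, Ubqln4 was at -0.16 in heart and 0.36 in liver without overlap in either tissue, and Ubqln1 at -0.15 in liver. Ubqln2, fitted at -0.28 in heart, was near background there, at 1.3 to 9.4 in wild types and -4.6 to 1.7 in mutants. The size of its difference is therefore not known.

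Of the antigen-processing genes, which share the interferon response with the immunoproteasome, all 8 tested in heart were above 0 at their brightest probes, where 51.8% of all genes were, with a median of 0.10, and none passed. Other probes disagreed: a second Tapbp probe was at -0.56 where the brightest was at 0.00, and other Irf1 probes were at -0.11, -0.04, -0.27 and -0.29 where the brightest was at 0.12. H2-D1, a class I heavy chain, had a change of 0.46 ± 0.14 (limma adjusted p = 0.13) and Nlrc5, the activator of class I genes, one of 0.43 ± 0.14 (adjusted p = 0.16). Nlrc5 did not overlap, with 5.8 to 14.4 in wild types and 15.1 to 30.9 in mutants, all of them dim. In liver 3 of the 8 were above 0, with a median of -0.09, Irf1 at -0.30 without overlap and B2m, the light chain, at -0.12.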

How the data were processed

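The values used were the authors' deposited linear intensity per probe, from one-colour Illumina bead arrays. The submitters' processing notes name GenomeStudio 2011.1, and the normalization is not given in the sources used here. Heart values lie around 0 at background and liver values around 110, so the tissues had been scaled separately. Levels were read only within a tissue, except for the markers that checked the tissue labels. A second table of intensity, with 15 columns whose names match no sample label, was not used. Total RNA was prepared with Trizol and a column, per the labels, and each array of a tissue is a separate mouse. By the mouse ids in the labels, 7 of the 8 mice gave both tissues. Of the 25697 probes, 23978 had 1 gene symbol, 0 had several and 1719 were not listed. The number of arrays limits the precision.

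The background of each array was taken from its own low values (their mode and the SD below it), removed with the normexp model, 16 was added and log2 taken. Probes entered the test of a tissue if they were above background (normal p below 0.05) on at least 3 arrays. Genotypes were compared with limma 3.58.1 in R 4.3.3, mutant minus wild type within a tissue, and the tissue difference in a fit of all 15 arrays with the mouse as a random block (statmod 1.5.0, correlation 0.0118). Fits were tested on simulated data. Replicate numbers of wild types and mutants mark different mice. Correlations of same-numbered arrays were -0.106 to -0.0506 in heart and -0.0433 to 0.0143 in liver, so the numbers do not pair them. A gene with several probes is given by its brightest unless stated.

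The members and lists were chosen with earlier results of these data known. The text names each proteasome probe past the threshold, up to 3 genes of smallest p per list and tissue, the catalytic and inducible subunits with Psme1 and Psme2, and 2 genes of smallest p per list of other genes, with further members as examples. Probes of Psma8, Psmb11, Psmd3, Psmf1 and Psmg4 were not analysed here, and 1 further item is not reported here. Alternatives are given in the closing section.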

Additional observations from a re-analysis of the deposited data

Results flagged for a closer look

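Between the tissues, the change of Psmb1 differed by -1.43 (liver minus heart) and that of Psme3 by 1.06 on the log2 scale, and both differences passed limma's test of the difference itself.

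In 12 of 79 groups of 4 arrays a single array lay far from the other 3 relative to the range of the group. For independent normal values this rule flags about 1 in 20. The groups here share the same arrays, and Psmc3ip was named after its values were seen. For these reasons the 12 flags cannot be set against that share. Wild-type heart 4, the array with the lowest rank correlation, accounted for 5 of them: Psma4 at 1554.5 against 1773.5 to 1804.8 in the other wild-type hearts, Psmb9 at 61.3 against 102.6 to 108.3, Psmb10 at 779.3 against 598.3 to 623.2, Psmd4 at 4415.4 against 3394.2 to 3554, and Psmc3ip at 249.8 against 65.6 to 90. Wild-type heart 1 was high for Psmd2 (37.4 against 28.2 to 29.5) and Psmd6 (16.1 against 8.1 to 8.9). Wild-type heart 2 was high for Psmb5 (147.2 against 115.3 to 117.2) and low for Psmc5 (770.2 against 918 to 934.1). Among the mutant hearts, heart 4 was high for Psmb9 (145.3 against 106.9 to 112.4) and heart 1 for Psmc3ip (290.5 against 63.1 to 83.5). Wild-type liver 2 was high for Psme2 (237 against 212.6 to 216.8).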

How the results depend on the processing

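Psmb1 passed the heart test under every alternative run, with changes from 1.10 to 1.31. Psmb5 and Psme3 passed under all except a floor of 16 in place of the background correction (Psmb5 1.06, adjusted p = 0.0888, and Psme3 -0.80, adjusted p = 0.0634) and, for Psmb5, a single fit of all arrays (0.96, adjusted p = 0.0624). Quantile normalization and centring on the median are weak checks, since the deposited heart arrays already had medians of 8.04 to 8.08. With these settings 369 and 371 heart probes passed, against 367. With the replicate number as a block, 237 heart probes passed, Psmb1, Psmb5 and Psme3 among them, and 32 liver probes, with no proteasome probe among them. The tissue difference of Psmb5 passed with the floor (-1.10, adjusted p = 0.0229), and those of Psmb1 and Psme3 passed throughout. The floor of 16 lies below the liver background of around 110 and leaves it in, which shrinks liver changes. The pass of Psmb5 therefore decides nothing, since its liver readings were close to background. The same limit holds for every liver value with the floor. Of 50 named values that did not pass, 1 passed under an alternative (Psmc3ip in liver without mutant liver 1, whose wild types were mostly at background) and 11 changed sign under an alternative without passing. The median of the proteasome genes ran from 0.01 to 0.06 in heart, around 0.03, and from -0.06 to 0.00 in liver, around -0.03, with a change of sign in liver (0.0048 without mutant liver 1).

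The number of all probes that passed moved more. In heart it was 367, and 577 with an offset of 50, 130 with the floor, 604 with eBayes's trend and robust options, 574 in a single fit, and 198 to 294 without single arrays (below 367 by over 1.5 times without wild-type heart 1 or 3 or mutant heart 1 or 3). In liver it was 12, and 0 (limma, 2065 at an unadjusted p below 0.05) without the filter on dim probes, 5 with the floor, 37 with the trend and robust options, 154 in a single fit, and 2 to 54 without single arrays (for the wild types 2 when liver 1, 6 when liver 3 and 24 when liver 4 was left out, and for the mutants 54, 2 and 2 for livers 1, 2 and 3). For the tissue difference it was 248, and 385 with the floor and 136 to 288 without single arrays. The causes were not tested.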
